A study of Mus musculus with 30 samples.

Results

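The myosin gene microRNAs (miRNAs) are short RNAs cut from introns of genes that encode the heavy chain of cardiac and slow-muscle myosin. They were taken by the names printed on a miRNA array, mmu-miR-208a-3p, mmu-miR-208a-5p, mmu-miR-208b and mmu-miR-499, which gave 4 of the 1079 mouse miRNAs on it. The 4 names were read in mouse heart after carbon black nanoparticles had been put into the lung. All mice were female C57BL/6 from Taconic that came at 5 to 6 weeks of age, and every mouse, controls included, was given 1 instillation of 40 µl of fluid followed by 150 µl of air. Treated mice received 162 µg of Printex 90, a commercial carbon black of nanosized particles, and vehicle mice 0 µg. The fluid in both was 0.9% saline with 10% acellular lung lavage fluid from C57BL/6 mice. A random heart section that held both ventricles was taken 1, 3 or 28 days later, and each mouse gave its own RNA and its own 1-colour array.

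The groups used were Printex 90 mice on day 1 (n = 6), day 3 (n = 4) and day 28 (n = 5), and vehicle mice on day 1 (n = 4), day 3 (n = 6) and day 28 (n = 4), where the study's design text states 6 per group. Another Printex 90 mouse of day 3 had a value only in the authors' table of processed values. The mice of day 28 were killed later and so were older than those of days 1 and 3, the labels give no age at death, and time after instillation and age cannot be told apart. A section of whole ventricle holds several cell types, so fewer cells of a type and less of a miRNA per cell cannot be told apart.

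In mouse ventricle the beta myosin heavy chain, from Myh7, dominates before birth and is replaced after birth by the alpha chain, from Myh6. Myh6, Myh7 and the related Myh7b carry miR-208a, miR-208b and miR-499 in their introns, and each miRNA is made with the transcript of its host gene. In mouse heart, miR-208a is needed for Myh7 to be induced under pressure load or low thyroid hormone, partly through repression of the transcriptional co-regulator Med13 (Thrap1), and miR-208b and miR-499 support the slow myosin program in skeletal muscle through targets such as Sox6.

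The mature sequences are shown because the 4 names differ in how much of their sequence they share, which bears on which values can be set side by side. They are RefSeq's sequences on GRCm38.p6, written 5′ to 3′, and capitals mark the seed, bases 2 to 8, which pairs with target transcripts.
miR-208a-3p: aUAAGACGagcaaaaagcuugu
miR-208b (taken as miR-208b-3p): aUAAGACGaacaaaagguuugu
miR-499 (taken as miR-499-5p): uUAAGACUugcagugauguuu
miR-208a-5p: gAGCUUUUggcccggguuauac
All 4 names were matched in RefSeq. The array names miR-208b and miR-499 carry no arm. They were taken as the arms above because the array lists the other arms separately as miR-208b* and miR-499*, while the files used here give no probe sequences.

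The seed uaagacg was found in 2 of the 1738 mature mouse miRNAs in the RefSeq table, miR-208a-3p and miR-208b-3p. Bases 2 to 7, uaagac, were found in 3 of them, those 2 and miR-499-5p. Over their 22 bases miR-208a-3p and miR-208b were identical at 19, and they differed at G10A, A16G and C18U, counted from the 5′ end with the base of miR-208a-3p first. Over 21 compared bases miR-499 shared 12 with miR-208a-3p and 10 with miR-208b. With 3 differing bases, cross-hybridisation between miR-208a-3p and the miR-208b probes was not tested. The miR-208a-5p strand has another seed and comes from the other arm of the miR-208a hairpin.

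The hairpins below show from which arm each measured strand is cut, with the strand that the array names measure in capitals.
Mir208a: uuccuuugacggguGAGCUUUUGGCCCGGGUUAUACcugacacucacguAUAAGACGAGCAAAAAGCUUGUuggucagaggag
Mir208b: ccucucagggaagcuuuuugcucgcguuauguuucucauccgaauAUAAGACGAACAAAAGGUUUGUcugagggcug
Mir499: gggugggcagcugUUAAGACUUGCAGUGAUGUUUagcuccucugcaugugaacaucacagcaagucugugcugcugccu
On GRCm38.p6 Mir208a lies at chr14:54949060-54949142 on the minus strand, inside Myh6 (chr14:54941921-54968017). Mir208b lies at chr14:54975700-54975776 on the same strand, inside Myh7 (chr14:54970684-54994626), and the starts of the 2 hairpins are 26640 bases apart. Mir499 lies at chr2:155622880-155622958 on the plus strand, inside Myh7b (chr2:155611243-155634307).

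A miRNA's value below is the mean log2 processed signal of its probes after each array was scaled on its 75th percentile, with a floor of 4.04, and values of different miRNAs come from different probes and do not rank their amounts. On any one array a probe counted as detected if the software had marked a share of 0.5 or more of its spots as clearly over background. Each array had between 18.4% and 27.5% of its spots well above background and between 231 and 339 mouse miRNAs detected, and no spot was saturated (0 spots). Of the muscle markers, miR-1a, miR-133a, miR-133b, miR-208a-3p and miR-499 were detected on all 29 arrays, and miR-206, known from skeletal muscle, on 17. Red cell miR-451, leukocyte miR-142-3p, endothelial miR-126-3p, smooth muscle miR-143 and fibroblast miR-199a-3p were also detected on all 29 arrays, liver miR-122 on 26, and the 3 brain and 5 epithelial markers on 0. The tests took in 306 miRNAs, all 4 myosin gene miRNAs among them. Differences were tested in limma over all 306 with Benjamini-Hochberg adjustment, two-sided, at a threshold of 0.05.

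Detection separated the members. The strands miR-208a-3p and miR-499 were detected by both probes on all 29 arrays, and the other strand of the Mir499 hairpin, miR-499*, on 0. The name miR-208a-5p was detected on 29 arrays, but by both of its probes on 14, and 1 of the 2 passed the filter. miR-208b was detected on 18 arrays, all of days 1 and 3, and miR-208b* on 0. By group, miR-208b was detected on 5 of 6 Printex 90 arrays and 4 of 4 vehicle arrays of day 1, on 4 of 4 and 5 of 6 of day 3, and on 0 of 5 and 0 of 4 of day 28. The pair without detection before day 28 were 1 Printex 90 array of day 1 and 1 vehicle array of day 3, which had the lowest shares of spots well above background of all 29 (19.2% and 18.4%).

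miR-208b, the miRNA of the beta myosin gene, was lower on day 28 than on days 1 and 3 in Printex 90 mice and in vehicle mice. In Printex 90 mice its log2 signal had a lowest value of 5.08, a median of 5.36 and a highest value of 5.60 on day 1 (n = 6), was 5.49, 4.70, 5.00 and 5.50 on day 3, and was 4.04, 4.04, 4.04, 4.69 and 4.18 on day 28. In vehicle mice it was 5.37, 5.50, 5.15 and 5.31 on day 1, had a lowest value of 4.77, a median of 5.16 and a highest of 5.48 on day 3 (n = 6), and was 4.12, 4.04, 4.04 and 4.04 on day 28. Of the 9 arrays of day 28, 6 sat at the floor. The 9 arrays of day 28 lay between 4.04 and 4.69 and the 20 arrays of days 1 and 3 between 4.70 and 5.60, so the days did not overlap, although the highest array of day 28 and the lowest of day 3, both of Printex 90 mice, were 4.69 and 4.70.

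**Figure D1:**
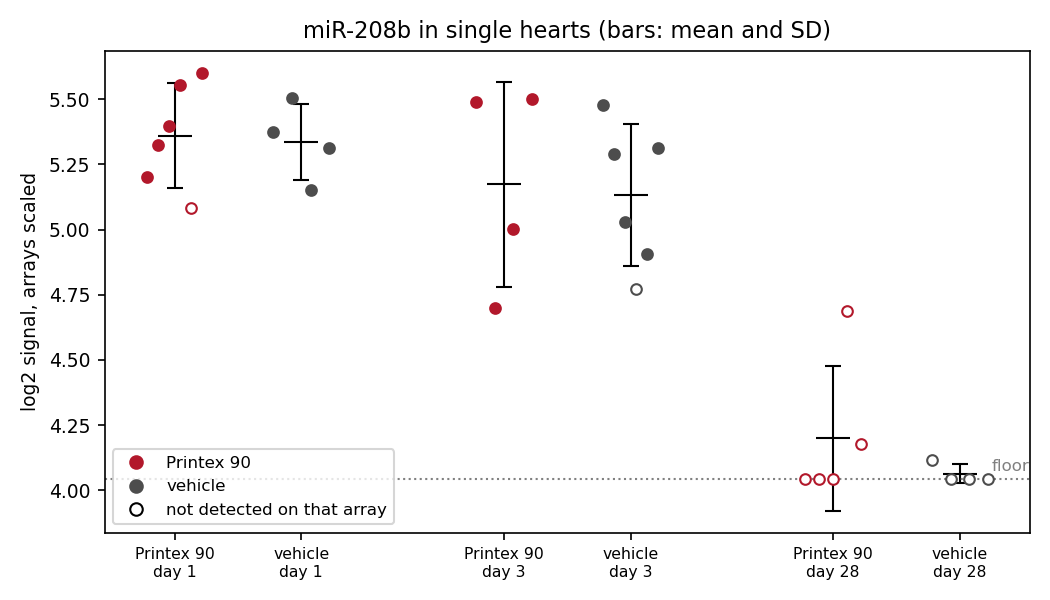
miR-208b in each heart, by treatment and day. The y axis is log2 processed signal after scaling, each point is 1 array, open points are arrays on which miR-208b was not detected, bars show mean and SD, and the dotted line is the floor of 4.04. All 9 arrays of day 28 are open and lie between 4.04 and 4.69, below the 20 arrays of days 1 and 3.

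In Printex 90 mice miR-208b averaged 4.20 ± 0.28 on day 28 (SD, n = 5), against 5.36 ± 0.20 on day 1 (n = 6) and 5.17 ± 0.39 on day 3 (n = 4). The limma difference was -1.16 ± 0.15 (SE) from day 1, with an adjusted p of 9.94e-06, and -0.97 ± 0.16 from day 3, with an adjusted p of 0.00101. In vehicle mice it averaged 4.06 ± 0.04 on day 28 (SD, n = 4), against 5.34 ± 0.15 on day 1 (n = 4) and 5.13 ± 0.27 on day 3 (n = 6). The differences were -1.27 ± 0.17 (SE) from day 1, with an adjusted p of 3.08e-05, and -1.07 ± 0.16 from day 3, with an adjusted p of 1.28e-04. miR-208b thus fell in all 4 comparisons, and in each it had the smallest limma p of the 306 miRNAs. It was among the 306 only through its detection on days 1 and 3, when it was high, so that rank is no separate support. A fit without the detection filter still left out probes with the same value on all arrays. There the adjusted limma p-values of miR-208b against days 1 and 3 were 1.48e-05 and 0.00141 in Printex 90 mice. In vehicle mice they were 4.50e-05 and 1.83e-04. The comparisons with day 1 and with day 3 share the day 28 arrays, while the Printex 90 and vehicle comparisons share none. Most arrays of day 28 were set to the floor, which narrows the SDs of that day. The limma SEs and p-values therefore do not rest on the spread between mice alone.

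Read against all miRNAs, calls between days were few. Between day 28 and day 1 the share of miRNAs past the threshold was 1.31% in Printex 90 mice (4 of 306) and 1.96% in vehicle mice (6 of 306). Between day 28 and day 3 it was 0.327% in Printex 90 mice, miR-208b alone, and 0.654% in vehicle mice (2 of 306). Of the 4 myosin gene miRNAs, 1 passed in each of the 4 comparisons, always miR-208b. Groups without overlap in the lower direction made up 0.654% of the 306 miRNAs in each Printex 90 comparison of day 28 and 2.29% in each vehicle one.

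Because no array of day 28 detected miR-208b, its level there is only bounded. There it was taken at the lowest signal called detected on the same array, or at its own signal where that was higher, and the 1 array without detection in Printex 90 mice on day 1 (of 6) and in vehicle mice on day 3 (of 6) was put at the floor. By group means under this scaling, miR-208b was then at least 1.5-fold lower on day 28 than on day 1 and at least 1.48-fold lower than on day 3 in Printex 90 mice. In vehicle mice it was at least 1.77-fold lower than on day 1 and at least 1.41-fold lower than on day 3. With those 2 undetected arrays at their own signal instead, the Printex 90 value against day 1 was 1.69-fold and the vehicle value against day 3 was 1.54-fold. The log2 differences given above were taken at the floor.

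Both miR-208b probes were lower on day 28 in all 4 comparisons. In an exact two-sided permutation test on miR-208b alone, day 28 against day 1 gave p = 0.00216 in Printex 90 mice and p = 0.0286 in vehicle mice. Day 28 against day 3 gave exact p = 0.0159 in Printex 90 mice and exact p = 0.00476 in vehicle mice. Adjusted over the 36 exact tests run on the 4 miRNAs in 9 comparisons, these 4 were 0.0779, 0.190, 0.190 and 0.0857, and 4 arrays against 4 cannot give a p below 0.0286. Within slides, where days could be compared on the same glass, the Printex 90 difference ranged from -1.28 to -0.79 over 4 slides against day 1 and from -1.32 to -0.32 over 3 slides against day 3. In vehicle mice it ranged from -1.46 to -1.26 and from -1.27 to -0.98 over 3 slides each. All of these 13 within-slide differences were negative. They are not separate observations, since each rests on few arrays and the comparisons with day 1 and day 3 share the day 28 arrays.

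The calls were lost under some other processing. Quantile normalization kept the Printex 90 call against day 1 (-1.11, adjusted p = 0.00404) and ended the other 3 (adjusted p between 0.0589 and 0.164), while unscaled signal and normexp background correction ended all 4, at differences of -1.24 to -0.84 and -0.43 to -0.25. With only its own groups in the limma fit, the Printex 90 difference from day 3 had an adjusted p of 0.216, the software's total gene signal gave larger differences of -3.09 to -2.39, and the authors' value table kept all 4 calls at -0.48 to -0.40.

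The scale on which the days separate was looked at in the values before scaling. Unscaled, the processed signal of miR-208b lay between 8.82 and 26.7 intensity units on day 28 (mean 15.4, n = 9) and between 16.2 and 59.4 on days 1 and 3 (mean 40.6, n = 20), so single arrays overlapped. In the authors' value table, which is on a log2 scale with no background subtracted, its values lay between 6.03 and 6.23 on day 28 and between 6.35 and 6.94 on days 1 and 3, without overlap. There the Printex 90 mouse of day 3 without a scanner signal had 6.40, within the range of days 1 and 3.

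**Figure D2:**
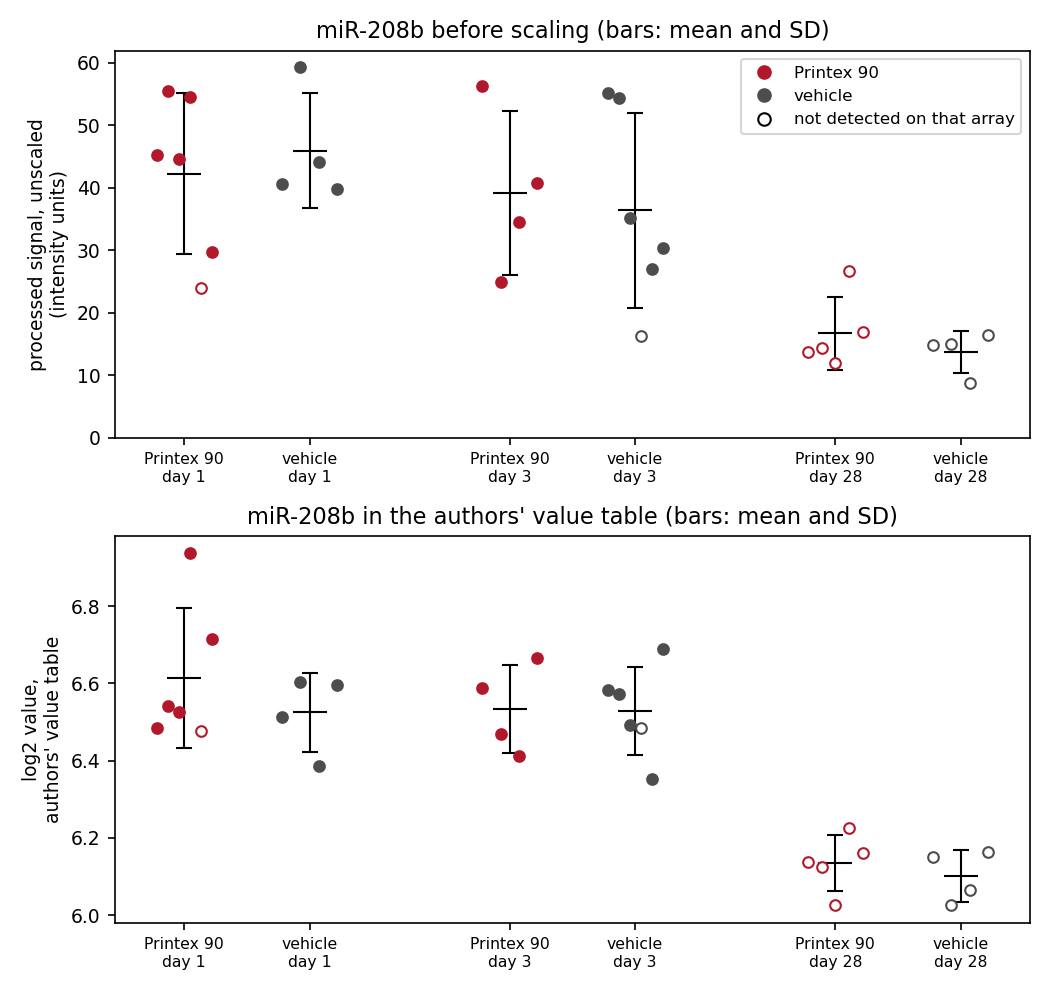
miR-208b by treatment and day on 2 other scales. The upper panel gives processed signal before scaling in intensity units and the lower panel the log2 value of the authors' table, 1 point per array, with mean and SD as bars and open points where miR-208b was not detected. Arrays of day 28 overlap those of days 1 and 3 before scaling (8.82 to 26.7 against 16.2 to 59.4) and do not overlap in the authors' table.

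Values that touch the level of the whole array are given beside these differences. Spots well above background made up 24.7% ± 0.63 in Printex 90 mice on day 28 (SD, n = 5), against 23.6% ± 3.35 on day 1 (n = 6), and 24.5% ± 1.81 in vehicle mice on day 28 (n = 4), against 25.7% ± 1.34 on day 1 (n = 4). On day 3 they made up 24.2% ± 1.45 in Printex 90 mice (n = 4) and 23.5% ± 3.58 in vehicle mice (n = 6). With that share as a covariate the 4 differences of miR-208b were between -1.23 and -0.99 in limma, all past the threshold. Of 24 markers of other cell types and tissues, 16 were tested and 0 passed in any of the 13 comparisons by limma. Against day 1, the markers on day 28 differed by -1.05 (liver miR-122) to 0.43 (endothelial miR-126-5p) in Printex 90 mice, with a median of -0.09, and by -0.33 (red cell miR-144) to 0.19 (miR-126-5p) in vehicle mice, with a median of 0.02. Against day 3 they differed by -0.25 (miR-144) to 0.12 (miR-126-5p) in Printex 90 mice, with a median of -0.04, and by -0.76 (miR-144) to 0.32 (miR-126-5p) in vehicle mice, with a median of -0.03. The adjusted p of miR-122 in the first of these was 0.643 and that of miR-144 in the last 0.237 in limma, and the part of these markers in the miR-208b differences was not tested.

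Between days 1 and 3 miR-208b did not pass. Day 3 minus day 1 was -0.19 ± 0.16 (SE) in Printex 90 mice, with a 95% interval of -0.51 to 0.14 and an adjusted p of 0.998 in limma, and -0.20 ± 0.16 in vehicle mice, with an interval of -0.53 to 0.12 and an adjusted p of 0.509. No miRNA of the 306 passed in either of these 2 comparisons (0%), and at an unadjusted p under 0.05 there were 0 in Printex 90 mice and 18 in vehicle mice.

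Exposure itself left miR-208b without a call. Printex 90 minus vehicle was 0.03 ± 0.16 (SE) on day 1, 0.04 ± 0.16 on day 3 and 0.14 ± 0.16 on day 28, with adjusted p-values of 0.952, 0.999 and 0.906 in limma. The 95% intervals were -0.30 to 0.35, -0.28 to 0.37 and -0.20 to 0.47. As the mean of the days it was 0.07 ± 0.09, with an adjusted p of 0.994. On day 28 this difference compares arrays without detection, and without the 1 Printex 90 array at 4.69 it was 0.01. The exposure difference of day 28 minus that of day 1 was 0.11 ± 0.23 and minus that of day 3 0.09 ± 0.23, with adjusted p-values of 0.978 and 0.982.

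By limma no miRNA passed for exposure on any day or as the mean of the days (0% of 306 in each), and at an unadjusted p under 0.05 there were 2, 1, 1 and 0. After adjustment the 4 myosin gene miRNAs gave 0 calls for exposure. The 1 miRNA counted on day 28 before adjustment was miR-208a-3p, which ranked 1 of the 306 in limma there.

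miR-208a-3p, the strand from the alpha myosin gene, passed in none of the 13 comparisons, and its largest exposure difference was on day 28. There its log2 signal was 8.72, 8.56, 8.85, 8.58 and 8.81 in Printex 90 mice, against 9.11, 8.97, 8.93 and 8.81 in vehicle mice. All 5 Printex 90 arrays were below the vehicle mean of 8.96, and the groups overlapped only through the Printex 90 array at 8.85, above the lowest vehicle array at 8.81. The means were 8.70 ± 0.13 in Printex 90 mice (SD, n = 5) and 8.96 ± 0.12 in vehicle mice (n = 4), a difference of -0.25 ± 0.12 (SE) with a 95% interval of -0.49 to -0.01. The unadjusted p was 0.0389 and the adjusted p 0.906 in limma. An exact permutation test gave p = 0.0317, or 0.190 adjusted over the 36 exact tests, so the difference did not pass after correction.

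The day 28 value of miR-208a-3p was negative under all settings that were run. Its 2 probes differed by -0.26 and -0.25, the 3 slides that held both groups gave -0.39 to -0.001, and leaving out each array in turn gave -0.30 to -0.20. Both the quantile-normalized values (-0.36) and the authors' value table (-0.32) were further from 0, with adjusted p-values of 0.763 and 0.764. Normexp (-0.21) and slide as a fixed block (-0.22) were nearer to 0, with adjusted limma p-values of 0.803 and 0.805.

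On the earlier days miR-208a-3p differed less. On day 1 it had a lowest value of 8.48, a median of 8.80 and a highest of 8.99 in Printex 90 mice (n = 6), against 9.17, 8.96, 8.78 and 8.66 in vehicle mice, and the groups overlapped. The means were 8.77 ± 0.18 in Printex 90 mice (SD, n = 6) and 8.89 ± 0.22 in vehicle mice (n = 4), a difference of -0.12 ± 0.11 (SE, adjusted p = 0.783 in limma). On day 3 it was 8.80, 8.92, 8.70 and 8.80 in Printex 90 mice, against a lowest value of 8.39, a median of 8.83 and a highest of 8.98 in vehicle mice (n = 6). The day 3 means were 8.80 ± 0.09 in Printex 90 mice (SD, n = 4) and 8.78 ± 0.21 in vehicle mice (n = 6), a difference of 0.02 ± 0.11 (SE, adjusted p = 0.999).

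Whether exposure acted differently on day 28 was tested directly for miR-208a-3p. The exposure difference of day 28 minus that of day 1 was -0.14 ± 0.16 (SE, adjusted p = 0.830 in limma), and minus that of day 3 it was -0.27 ± 0.16 (adjusted p = 0.982). The mean over the days was -0.12 ± 0.07, with a 95% interval of -0.25 to 0.02. Between days within a treatment, miR-208a-3p differed by -0.10 to 0.17 over 6 comparisons, and its smallest adjusted p was 0.697.

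miR-499, from Myh7b, passed in none of the 13 comparisons. In Printex 90 mice it had a lowest log2 signal of 10.60, a median of 11.21 and a highest of 11.38 on day 1 (n = 6), was 10.88, 11.15, 11.29 and 11.43 on day 3, and was 11.29, 11.01, 11.28, 11.43 and 11.52 on day 28. In vehicle mice it was 11.16, 11.10, 11.24 and 11.19 on day 1, had a lowest value of 10.80, a median of 11.21 and a highest of 11.45 on day 3 (n = 6), and was 11.43, 11.37, 11.28 and 11.40 on day 28. The Printex 90 and vehicle ranges overlapped on each day. Of the 29 arrays, 3 lay below 10.81: 2 of Printex 90 mice on day 1, at 10.60 and 10.61, and 1 of a vehicle mouse on day 3.

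**Figure D3:**
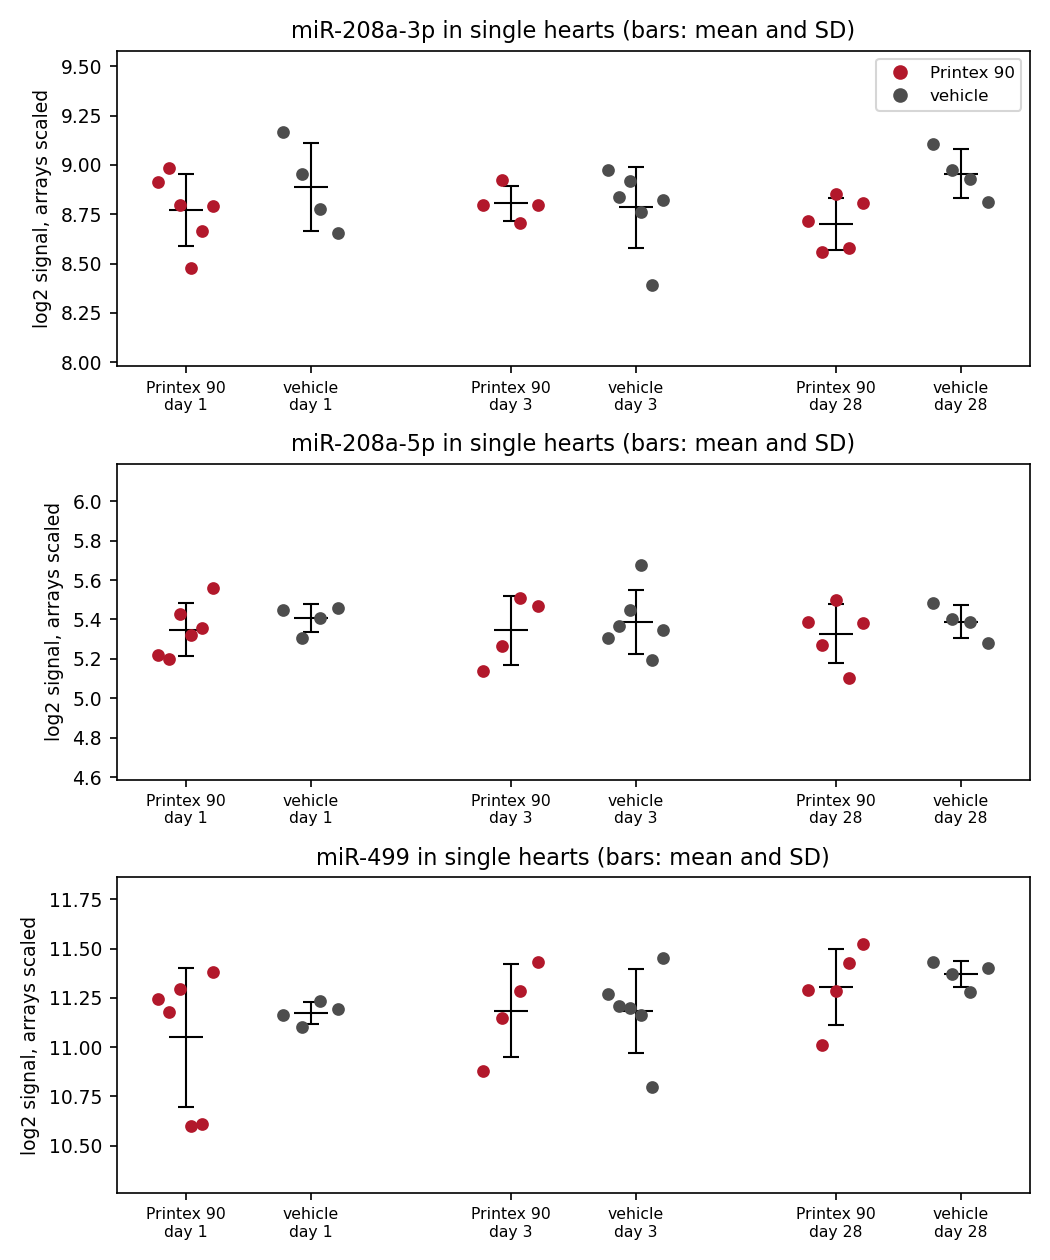
The 3 other myosin gene miRNAs in each heart, by treatment and day. Each panel gives log2 processed signal after scaling, 1 point per array, with mean and SD as bars, on an axis of its own. For miR-208a-3p on day 28, all 5 Printex 90 arrays (8.56 to 8.85) lie below the vehicle mean of 8.96, but overlap the vehicle range (8.81 to 9.11). The ranges of miR-208a-5p and miR-499 also overlap on each day.

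The exposure differences of miR-499 were small against their errors. They were -0.12 ± 0.15 (SE) on day 1, 0.003 ± 0.15 on day 3 and -0.06 ± 0.15 on day 28, with adjusted p-values of 0.861, 0.999 and 0.950 in limma. The 95% intervals were -0.42 to 0.18, -0.30 to 0.30 and -0.38 to 0.25. The mean over the days was -0.06 ± 0.09, with an adjusted p of 0.994. The signs of the day 1 and day 3 differences of miR-499 and miR-208a-3p turned when arrays were scaled over all probes and in the authors' value table.

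By day, miR-499 had its highest means on day 28, at 11.31 ± 0.19 in Printex 90 mice (SD, n = 5) and 11.37 ± 0.07 in vehicle mice (n = 4), without passing the test. Against day 1 (11.05 ± 0.35 in Printex 90 mice, n = 6, and 11.17 ± 0.06 in vehicle mice, n = 4) the differences were 0.26 ± 0.14 (SE) in Printex 90 mice and 0.20 ± 0.16 in vehicle mice, with adjusted p-values of 0.611 and 0.755 in limma. The vehicle arrays of day 28 (11.28 to 11.43) all lay above those of day 1 (11.10 to 11.24). Groups without overlap in the higher direction made up 2.94% of the 306 miRNAs in that comparison. The exact permutation p was 0.0286, the smallest that 4 arrays against 4 can give, and 0.190 adjusted over the 36 exact tests. Against day 3 (11.19 ± 0.24 in Printex 90 mice, n = 4, and 11.18 ± 0.21 in vehicle mice, n = 6) the differences were 0.12 ± 0.15 and 0.19 ± 0.15 (SE). Their adjusted p-values were 0.778 and 0.892.

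miR-208a-5p, the other arm of the miR-208a hairpin, is given through the 1 probe that passed the filter. Its log2 signal lay between 5.10 and 5.50 on the 9 arrays of day 28 and between 5.14 and 5.68 on the 20 arrays of days 1 and 3. Over the 13 comparisons its differences lay between -0.06 and 0.01, with a smallest adjusted p of 0.891 in limma. The probe that did not pass the filter averaged between 4.54 and 4.66 in the 6 groups.

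**Figure D4:**
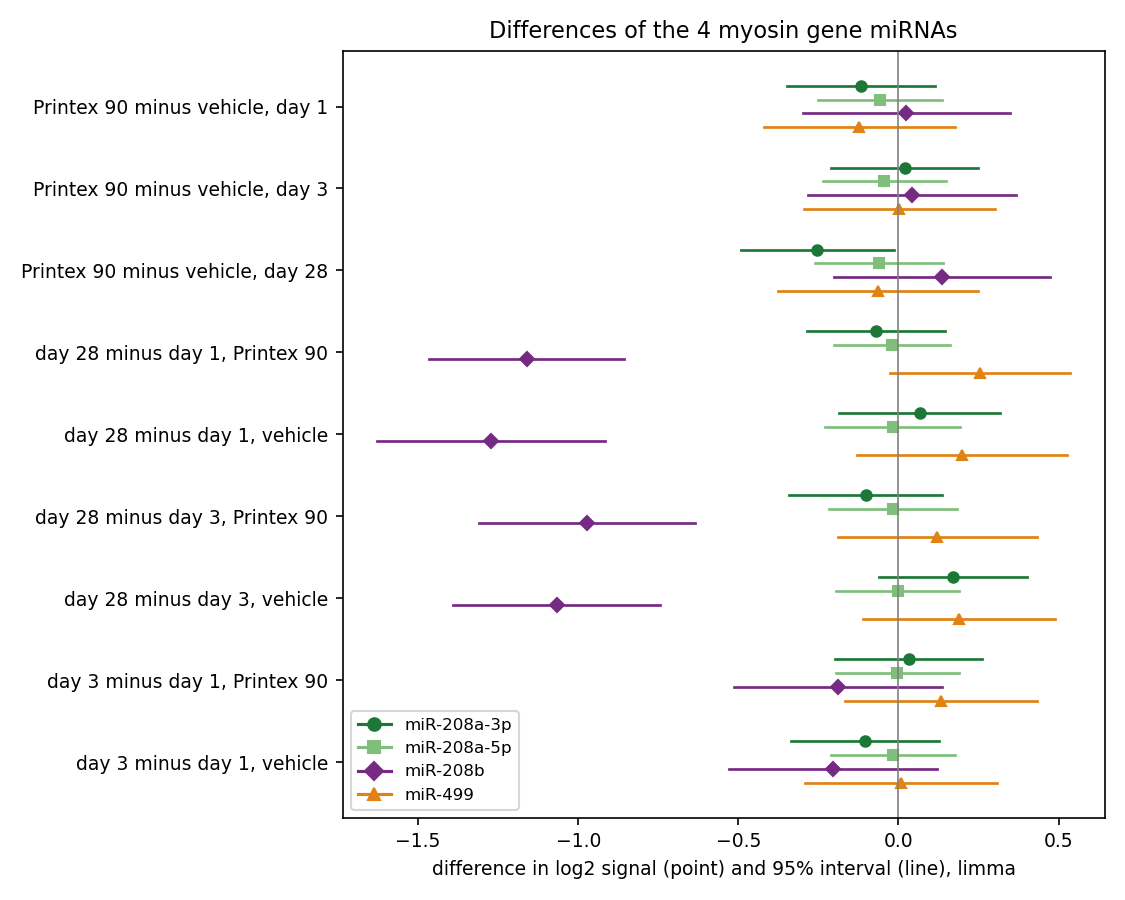
Differences of the 4 myosin gene miRNAs in 9 comparisons. The x axis is the difference in log2 signal with its 95% interval from limma, and each row is 1 comparison with the 4 miRNAs offset and marked by colour and shape. The intervals of miR-208b for day 28 against days 1 and 3 end at -0.64 or lower in both treatments, and the other intervals reach or cross 0 except that of miR-208a-3p for exposure on day 28, which ends at -0.01 before correction.

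How the members varied within groups is described by the residual SD of the limma fit. It was 0.14 for miR-208a-5p, 0.17 for miR-208a-3p, 0.23 for miR-499 and 0.25 for miR-208b on the log2 scale, against a median of 0.27 over the 306 miRNAs. For miR-208b, 6 of the 29 values behind that figure sat at the floor.

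Over the 29 arrays, with group means taken out, miR-499 went most with miR-34a (Pearson r = 0.77), miR-133b (0.76), miR-133a (0.74), miR-22* (0.72) and miR-194 (0.69), among 210 other miRNAs detected on all arrays. After quantile normalization miR-133a, miR-133b and miR-34a had the highest r with it, at 0.83, 0.75 and 0.65, while miR-22* had 0.05 and miR-194 0.22. The miRNAs most like miR-208a-3p were miR-1904 (0.68), miR-149 (0.67), miR-1198-5p (0.66), miR-202-3p (0.65) and miR-30a (0.64). Among the 210 they ranked 1, 3, 8, 5 and 2 after quantile normalization. With slide means taken out as well they ranked 23, 8, 17, 24 and 11, and miR-499 ranked 1. Those most like miR-208a-5p were miR-5097 (0.71), miR-3963 (0.69), miR-1a (0.68), miR-720 (0.65) and miR-34a (0.63). After quantile normalization they ranked 54, 97, 154, 65 and 89, and miR-1a had -0.26. With slide means taken out as well as group means they ranked 2, 7, 1, 5 and 6. Between members, r was 0.50 for miR-208a-3p and miR-499, 0.31 for miR-208a-5p and miR-499, and 0.16 for the 2 strands of Mir208a. After quantile normalization these were 0.54, -0.07 and 0.34, and with slide means taken out as well as group means 0.76, 0.31 and 0.44, so the sign for miR-208a-5p and miR-499 turned under quantile normalization. The arrays share their scaling, brightness and slide, so these values describe the arrays and carry no test.

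Other muscle miRNAs were read from a fixed list, of which 10 names were on the array and all were tested. These were miR-1a, miR-133a, miR-133a*, miR-133b, miR-206, miR-486*, miR-22, miR-22*, miR-378 and miR-378*. The listed miR-1a* and miR-486 were not found on the array under those names. None of the 10 passed in any of the 13 comparisons by limma (0 of 10 in each), at backgrounds of 0% for exposure and of 1.31%, 0.327%, 1.96% and 0.654% in the day 28 comparisons given above. Their median exposure difference was -0.02 on day 1, 0.02 on day 3 and -0.06 on day 28, against -0.07, 0.03 and 0.01 over all 306. For day 28 minus day 1 the median was 0.08 in Printex 90 mice and 0.06 in vehicle mice, against 0.10 and -0.05 over all 306. For day 28 minus day 3 it was 0.04 in Printex 90 mice and 0.09 in vehicle mice, against 0.09 and 0.10.

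The 3 muscle miRNAs with the smallest p for exposure did not pass on any day. On day 1 they were miR-22* (-0.09 ± 0.08, SE), miR-133a (-0.10 ± 0.10) and miR-206 (-0.25 ± 0.29), and their smallest adjusted p was 0.742. On day 3 they were miR-378 (0.08 ± 0.06), miR-1a (0.07 ± 0.07) and miR-378* (-0.05 ± 0.08), all with an adjusted p of 0.999. On day 28 they were miR-133a* (-0.10 ± 0.08), miR-22 (-0.08 ± 0.06) and miR-206 (0.37 ± 0.30), all with an adjusted p of 0.906. As the mean of the days they were miR-133a (-0.07 ± 0.06), miR-378 (0.04 ± 0.04) and miR-133b (-0.06 ± 0.06), with an adjusted p of 0.994.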

How the data were processed

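Per the file headers, the authors quantified 1-colour (Cy3) Agilent miRNA arrays with Feature Extraction 10.7.3.1, and the deposited scanner files hold a background-subtracted, detrended processed signal intensity per spot on a linear scale. The authors' deposited value table gives log2 values per miRNA for 30 samples; its scaling and centring are not given in the sources used here. The scanner file of 1 Printex 90 mouse of day 3 lists names without signal, so 29 arrays on 4 slides were used in place of the 30 planned.

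Spots were averaged per probe without control and outlying spots. The 418 probes with detection on every array set the scale, through their 75th percentile, and signals were floored at 16.5 (4.04 in log2). A miRNA's value is the mean of those probes that were detected on 4 or more arrays within some group, which left 621 probes and 306 of 1079 mouse miRNAs. limma 3.58.1 under R 4.3.3 fitted 1 mean per group with 13 two-sided contrasts, and p-values were adjusted over the 306. The fit was also run on simulated normal values without a floor, slide or array effect. There it called 20 of 30 miRNAs changed by 0.5 in log2 and 24 of 30 changed by 1, with 1 false call. That setting differs from miR-208b on day 28, where most arrays sat at the floor. Replicate numbers follow the order of deposit and pair no samples. The number of arrays limits the precision, and the p-values rest on the spread between arrays of 1 experiment, each from its own mouse. For miR-208b that spread is narrowed by the arrays set to the floor.

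The 4 myosin gene miRNAs, the muscle list and the marker lists were chosen with earlier results of these data known. The text names every myosin gene miRNA, their other strands, the 3 listed muscle miRNAs with the smallest p per exposure comparison, and the 5 miRNAs with the highest Pearson r to each member over the arrays. Alternatives to the scaling, background correction, filter, floor, probe rule, value source, slide, arrays and test were run 1 at a time. Sequences and coordinates are from RefSeq tables on GRCm38.p6.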

Additional observations from a re-analysis of the deposited data

Results flagged for a closer look

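In 3 of the 24 sets of 4 to 6 arrays (4 miRNAs in 6 groups), Dixon's test at the 95% level set 1 array apart from the others of its group, and chance does so in about 1 of 20 such sets. miR-208a-3p was lowest in vehicle replicate 5 of day 3, at 8.39, where the other 5 vehicle arrays of that day lay between 8.76 and 8.98. miR-208b was highest in Printex 90 replicate 4 of day 28, at 4.69, where the next was 4.18 and the other 3 sat at the floor. It was also highest in vehicle replicate 1 of day 28, at 4.12, where the other 3 sat at the floor of 4.04, so that group had no spread to compare it with. On neither of these 2 arrays was miR-208b detected.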

How the results depend on the processing

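No paired analysis was possible because the replicate numbers follow the order of deposit and pair no mice. On day 28 miR-208b kept its negative sign against days 1 and 3 under every setting that gave it a value. Detection on all arrays leaves it out. Leaving out any 1 array kept its 4 calls, at -1.28 to -1.11 against day 1 and -1.13 to -0.86 against day 3 in Printex 90 mice, and at -1.33 to -1.22 and -1.14 to -0.999 in vehicle mice. Its calls ended without scaling (-0.98 against day 1 and -0.87 against day 3 in Printex 90 mice, -1.24 and -0.84 in vehicle mice), and under normexp (-0.37, -0.25, -0.38 and -0.43 in the same order). Under quantile normalization they ended against day 3 in Printex 90 mice (-0.95) and against days 1 and 3 in vehicle mice (-0.92 and -0.84). With only its own groups fitted, the Printex 90 difference against day 3 of -0.97 did not pass. By the exact permutation test, none of the 4 differences of miR-208b passed after adjustment over the exact tests. The cause was not tested.

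Counts of miRNAs past the threshold between days were small and moved by over 1.5 times under many settings. Against main counts of 4 (Printex 90) and 6 (vehicle) for day 28 minus day 1, and 1 and 2 for day 28 minus day 3, scaling over all probes gave 1 and 1 for day 1 and 1 for vehicle day 3. Quantile normalization gave 1 and 2, then 0 and 0; no scaling gave 0, 0, 0 and 0; normexp gave 0 and 3, then 0 and 0. Fits with only the groups compared gave 1 and 2, then 0 and 1. The value table gave 1 and 2 for day 1 and 1 for vehicle day 3. The brightest probe gave 2 for Printex 90 day 1 and 1 for vehicle day 3. Without the detection filter, and with slide as a fixed block, the counts for day 3 were 2 and 4. Slide as a random block and the total gene signal each gave 4 for vehicle day 3, detection on all arrays gave 0 for Printex 90 day 3, and the fit without the 4 dimmest arrays gave 2 and 2 for Printex 90. Leaving out 1 array gave 1 to 4 for Printex 90 day 1 (moved by 9 of 11 arrays), 3 to 6 for vehicle day 1 (moved only by vehicle replicate 4 of day 28), and 1 to 4 for vehicle day 3 (moved by 8 of 10 arrays).

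Differences that did not pass the limma test and lay near 0 changed sign. Scaling over all probes, which moved the median exposure difference of all miRNAs to 0.11 on day 1 and -0.16 on day 28, against -0.07 and 0.01, gave exposure differences on day 1 of 0.057 (miR-208a-3p) and 0.052 (miR-499). On day 3 it gave -0.071 (miR-208a-3p), -0.049 (miR-208b) and -0.087 (miR-499). It gave -0.091 for miR-499 on day 28 minus day 3 in Printex 90 mice and 0.10 for miR-208b on day 3 minus day 1 in vehicle mice. No scaling, which moved the median of all miRNAs to -0.24 for exposure on day 1 and -0.21 for day 28 minus day 1 in vehicle mice, gave -0.17 for exposure of miR-208b on day 1. It gave -0.11 for miR-208a-3p on day 28 minus day 1 in vehicle mice and -0.0042 for miR-499 on day 28 minus day 3 in Printex 90 mice. Normexp gave -0.056 for exposure of miR-208b on day 3 and 0.055 for its day 3 minus day 1 in vehicle mice. The brightest probe gave -0.025 for exposure of miR-208b on day 1, and on day 3 -0.0018 (miR-208a-3p) and -0.00084 (miR-499).

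The value table gave exposure differences of 0.017 (miR-208a-3p) and 0.036 (miR-499) on day 1 and of -0.094 and -0.015 on day 3, with -0.038 for miR-499 on day 28 minus day 3 in Printex 90 mice and 0.0034 for miR-208b on day 3 minus day 1 in vehicle mice. With all 30 samples it gave -0.10, -0.022 and -0.0497 for exposure of miR-208a-3p, miR-208b and miR-499 on day 3, and -0.0034 for miR-499 on day 28 minus day 3. For exposure of miR-499 on day 3, slide as a fixed block gave -0.0041 and the share of spots above background as a covariate -0.011. Without the 4 dimmest arrays miR-208b on day 3 gave -0.0025. By the exact permutation test alone, unadjusted, miR-208a-3p for exposure on day 28 (-0.25) and miR-499 for day 28 minus day 1 in vehicle mice (0.20) passed. Leaving out 1 array gave -0.011 to 0.16 for miR-208a-3p on day 28 minus day 1 in vehicle mice, where vehicle replicate 4 of day 1 turned it. It gave -0.036 to 0.082 for exposure of miR-208b on day 1, -0.12 to 0.0099 for miR-499 on day 28 (Printex 90 replicate 2 turned it), and on day 3 -0.059 to 0.058 for miR-208a-3p, -0.067 to 0.20 for miR-208b and -0.078 to 0.11 for miR-499. A signal as dim as that of miR-208b on day 28 gives only a bound there. The alternatives with the exact test between days, all 30 samples and the 4 dimmest arrays left out, and the bounds of miR-208b with undetected arrays of days 1 and 3 at the floor, were chosen after seeing the data.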
